A study of Mus musculus with 8 samples.

Results

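The zinc finger protein genes numbered Zfp600 to Zfp999 were described in polysome RNA of the mouse main olfactory epithelium, the sheet of olfactory neurons, their stem cells and supporting cells in the nose. Members were every row of the deposited expression table whose symbol lies in the range Zfp600 to Zfp999, with no pseudogene suffix, and 141 of 21765 rows met this rule. The symbol range says nothing about position or function, and the rule itself uses no measured value. Tissue was taken into 100 µg/mL cycloheximide, which holds ribosomes on their mRNA, and the lysate was spread on a sucrose gradient and cut into about 42 fractions of 350 µL. Early polysomes pooled 50 µL of each of fractions 27 to 34 and hold mRNAs with fewer ribosomes, and late polysomes pooled fractions 35 to 42, further down the gradient. WT mice were Mex3a flox/flox or Mex3a flox/+ with no Cre listed, without a statement of which library had which, and cKO mice carried Mex3a flox/flox with a Cre; the Cre line is not reported here and the age of the mice is not given. Early and late pools of WT and of cKO had 2 libraries each, 8 in all, and library names tie the early and late library of a number to 1 lysate, so that 4 lysates were compared. Replicates are separate lysates by name. Whether a lysate came from 1 mouse or several is not stated, and the spread may in part be technical.

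C2H2 zinc finger proteins bind DNA through repeated modules in which a pair of cysteines and a pair of histidines hold a zinc ion, and each module reads a short stretch of bases. In mammals many of them also carry a KRAB box, which binds the co-repressor TRIM28 (KAP1). TRIM28 then brings in the histone methyltransferase SETDB1, and this system is known for silencing transposable elements and for keeping imprints. Many of these genes arose by tandem duplication, so that close relatives lie side by side in clusters and share sequence. A second kind of C2H2 gene has no KRAB box and includes conserved regulators with other partners.

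By pattern in the longest GENCODE coding sequence, 87 of the 141 genes encoded a KRAB box with fingers, 36 encoded at least 3 fingers and no KRAB box, and 15 encoded fewer than 3 fingers. For 3 genes (Zfp607, Zfp783, Zfp939) no coding sequence was matched. A finger was a cysteine, 2 to 4 residues, a cysteine, 12 residues, a histidine, 3 to 5 residues and a histidine. The pattern for the KRAB box can miss a box of unusual sequence. Below, no KRAB box means no match to this pattern. The KRAB proteins had 2 to 33 fingers (median 12) and 274 to 1161 residues (median 552). Of the 140 genes placed on GRCm38, 32 lay on chromosome 7, 19 on chromosome 17, 16 on chromosome 8 and 10 on chromosome 13.

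The sequences below show how different the products are that share the Zfp name. They come from 7 of the 12 genes with the largest changes between fractions, and from a pair with shared sequence, Zfp934 and Zfp808, neither of which passed the test. All are coding strand, 5′ to 3′, from GENCODE M21 on GRCm38. In Zfp706 and the single fingers, capitals mark the codons of the zinc-binding cysteines and histidines. The whole coding sequence of Zfp706 is 228 bases in 2 coding exons, chr15:37001854-37003820 on the minus strand, and holds 1 finger.
Zfp706: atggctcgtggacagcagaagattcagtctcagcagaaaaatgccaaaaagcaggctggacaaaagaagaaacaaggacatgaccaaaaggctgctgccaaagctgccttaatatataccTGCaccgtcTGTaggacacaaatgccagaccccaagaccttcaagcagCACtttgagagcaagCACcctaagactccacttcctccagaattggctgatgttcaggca
A finger of Zfp622 (chr15:25984565-25984633, plus strand) has 5 residues between its histidines, and it was compared with 1 finger each of Zfp629 (chr7:127612039-127612101, minus strand), Zfp664 (chr5:124885640-124885702, plus strand) and Zfp637 (chr6:117845270-117845332, plus strand), which have 3.
Zfp622: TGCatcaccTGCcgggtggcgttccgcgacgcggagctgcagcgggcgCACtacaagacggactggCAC
Zfp629: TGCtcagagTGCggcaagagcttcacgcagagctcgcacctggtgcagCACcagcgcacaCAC
Zfp664: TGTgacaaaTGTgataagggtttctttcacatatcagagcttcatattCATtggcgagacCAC
Zfp637: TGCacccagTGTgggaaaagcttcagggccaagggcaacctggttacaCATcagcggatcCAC
KRAB box matches are shown for 2 of the KRAB members that fell in late polysomes, Zfp961 (chr8:71965812-71965844, plus strand) and Zfp938 (chr10:82227830-82227907, minus strand).
Zfp961: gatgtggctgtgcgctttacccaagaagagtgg
Zfp938: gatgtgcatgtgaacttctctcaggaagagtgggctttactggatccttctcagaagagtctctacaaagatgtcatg
A run of 200 identical bases occurs in the coding sequences of Zfp934 and Zfp808, and 90 bases of it are shown because reads within such a run match more than 1 gene. They lie at chr13:62518572-62518661 on the minus strand in Zfp934 and at chr13:62171219-62171308 on the plus strand in Zfp808.
Zfp934: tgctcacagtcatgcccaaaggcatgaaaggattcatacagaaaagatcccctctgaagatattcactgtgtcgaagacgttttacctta

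The authors deposited TPM, transcripts per 1000000, which is a gene's share of a library after division by length. Whole reads inferred from the steps in TPM summed to between 7776792 (cKO late replicate 2) and 12771079 (WT late replicate 2) per library. Mex3a checked the genotype labels. Its TPM was 97.4 and 116 (early) and 93.2 and 95.6 (late) in the WT lysates, against 13.9 and 19.8 (early) and 11.1 and 13.8 (late) in the cKO lysates. The cKO libraries were all below the WT libraries, including WT early replicate 2, whose genotype tag in the labels reads cKO against its title and which was kept as WT. Omp, the marker of mature olfactory neurons, was between 2439 and 5393 TPM in all libraries. It was lower in the late than in the early library of each lysate. Of 15 mature neuron markers, 10 were higher in late polysomes and 4 lower. Here and for the lists below, these are calls at an adjusted p under 0.05 (limma). Over all 16097 tested genes 34.2% were called higher and 34.8% lower. No marker of the 8 cell type lists was at 0 in any library. Several lists differed between the fractions of the same lysates: of 14 sustentacular (supporting) cell markers, 12 were higher in late polysomes and their summed TPM was 7680 to 9348 in the early libraries and 13405 to 15328 in the late ones, while 6 of 9 respiratory ciliated cell markers were lower, with sums of 1069 to 1238 early and 582 to 726 late. Of 12 gland markers 8 were higher and 3 lower, of 12 globose basal cell markers 9 and 0, and of 8 horizontal basal cell markers 7 and 0. Of 12 immature neuron markers 6 were higher and 5 lower, and of 10 immune and blood markers 2 and 4. The part of these marker genes in the results below was not tested.

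The 141 genes ranged from 0.0061 to 162 in mean TPM over the 8 libraries, with a median of 11.4. Among the 16097 genes tested, those with a mean TPM of at least 1, the median was 23.0. Of the 141 genes, 128 were tested and 13 were below that level (Zfp600, Zfp616, Zfp648, Zfp663, Zfp735, Zfp781, Zfp831, Zfp872, Zfp936, Zfp947, Zfp951, Zfp957 and Zfp960). The tested genes had 8 to 4266 inferred reads per library, and the median over genes of the lowest library was 100.5 reads.

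The 6 most abundant members were not of the KRAB kind. Zfp652, a partner of the co-repressor CBFA2T3, had TPM values of 171 and 182 (early) and 155 and 158 (late) in the WT lysates, against 166 and 183 (early) and 136 and 144 (late) in the cKO lysates. Zfp664, a protein made almost wholly of fingers, had 189 and 207 (early) and 133 and 124 (late) in the WT lysates, against 191 and 208 (early) and 113 and 109.6 (late) in the cKO lysates. Zfp644, a partner of the histone methyltransferases G9a and GLP, had 155 and 138 (early) and 166 and 143 (late) in the WT lysates, against 158 and 127 (early) and 153 and 139 (late) in the cKO lysates. These 3 genes exceeded 100 TPM in every library, with mean values of 162, 159 and 147. Zfp608, Zfp821 and Zfp740 followed, with mean TPM values of 77.7, 63.2 and 62.5. The KRAB members tested had a median mean TPM of 9.97, against 23.0 for members with fingers and no KRAB box and 44.0 for those with fewer than 3 fingers.

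Late and early polysomes were compared to ask how the mRNAs were spread over the gradient. Changes are on the scale log2(scaled TPM + 1), late minus early, averaged over the genotypes, and they are relative to the other mRNAs of the same pool. Of the 128 tested members, 24 were higher and 34 lower in late polysomes at an adjusted p under 0.05, which is 45.3% of them. Of all 16097 genes, 68.9% passed (34.2% higher and 34.8% lower). The 2 shares were not tested against each other. The median change was -0.0010 over members and -0.01 over all genes, and the middle 50% of members lay between -0.30 and 0.22, against -0.56 and 0.48 for all genes. The early and late libraries did not overlap in 56 of the 128 members (43.8%), against 62.5% of all genes. In late polysomes 31 members (24.2%) were higher in all 4 lysates and 39 (30.5%) lower in all 4, against 38.1% of all genes in each direction. The balance of higher and lower calls depended on scaling, which sets where 0 lies: with TPM as deposited the median of all genes rose to 0.09 and 37 members were higher and 22 lower, and with quantile normalization 26 were higher and 32 lower.

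**Figure D1:**
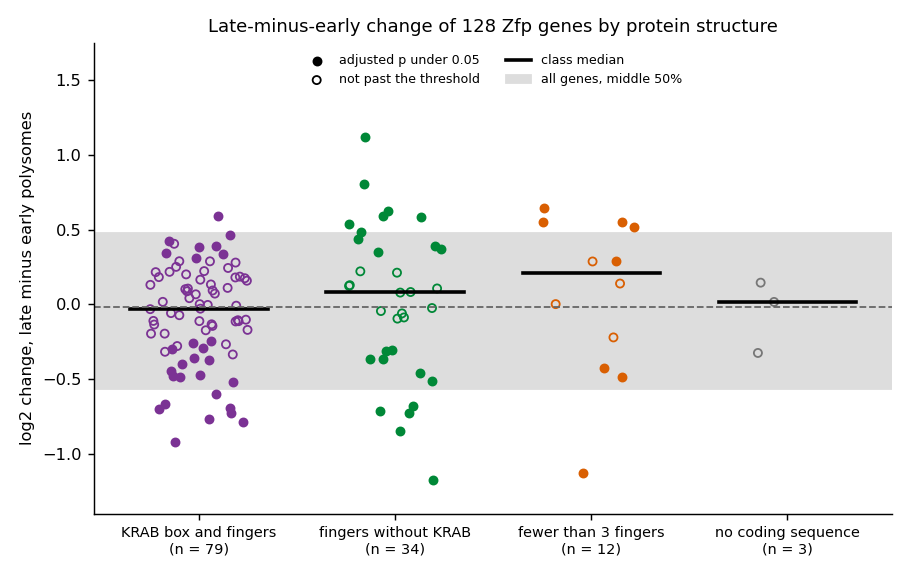
Change between late and early polysomes (log2, vertical axis) of each of the 128 tested genes, by structure of the encoded protein; filled points passed the adjusted threshold, black bars are class medians, the grey band holds the middle 50% of all 16097 genes and the dashed line their median. KRAB members are grouped near 0, with 28 of 79 filled, while members without a KRAB box reach 1.12 and -1.18; with TPM as deposited the KRAB calls change from 8 higher and 20 lower to 15 higher and 11 lower.

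Calls were then counted by the structure of the encoded protein. Over all genes the share called was 68.9%. Of 79 KRAB members, 28 (35.4%) passed, 8 higher and 20 lower, with a median of -0.03, and this split turned to 15 higher and 11 lower with TPM as deposited. Relative to the median of all genes the KRAB median was -0.02, -0.03 and -0.04 with the scaled, deposited and quantile-normalized values. Of 34 members with fingers and no KRAB box, 22 (64.7%) passed, 11 in each direction, with a median of 0.08. Of 12 with fewer than 3 fingers, 8 passed, 5 higher and 3 lower, with a median of 0.21. The 3 without a coding sequence gave 0 calls with limma on this mean over genotypes, 0 also at an unadjusted p under 0.05. In WT alone 1 of these 3 was called lower, at -0.68. KRAB zinc finger genes outside the symbol range, found by the same patterns, passed in 41 of 122 cases (33.6%), 24 higher and 17 lower, with a median of 0.06. Zfp1 to Zfp599, which hold some of these, passed in 52.2% of 184 tested, with a median of 0.08. The KRAB members had a median of 1040 inferred reads over all libraries, against 2452 for those with fingers alone and 2159 for all genes, and the part of depth in the lower share of calls was not tested. Among all genes the share called also followed level, from 32.6% at 1 to 5 TPM to 85.8% at 50 TPM and over. Among members 4 of 25 (16%) passed at the lower level and 10 of 11 (90.9%) at the higher. Between these levels the share of members was below that of all genes. It was 30.4% against 61.1% at 5 to 10 TPM, 51.1% against 72.3% at 10 to 20 and 58.3% against 80.8% at 20 to 50.

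Members in which the pattern found no KRAB box led the rise in late polysomes. Gene positions are GENCODE M21 spans on GRCm38. Zfp622 (chr15:25984366-25998481) encodes a factor of late 60S ribosome assembly related to yeast Rei1. Its TPM was 22.7 and 18.9 (early) and 50.6 and 45.4 (late) in the WT lysates, against 24.9 and 15.7 (early) and 47.2 and 53.4 (late) in the cKO lysates. All 4 late libraries were above all 4 early libraries, at 2.20 times their mean after scaling, a change of 1.12 ± 0.13 (SE, adjusted p = 1.33e-04, limma). It changed by 1.07 in WT and 1.17 in cKO. Zfp629 (chr7:127607031-127615797), a protein of 19 fingers, had TPM values of 17.3 and 16.7 (early) and 31.4 and 32.7 (late) in the WT lysates, against 16.2 and 14.3 (early) and 27.9 and 33.8 (late) in the cKO lysates. The late libraries again lay above the early ones, with a change of 0.81 ± 0.08 (SE, adjusted p = 6.14e-05, limma).

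Zfp750 (chr11:121510978-121519333) is a regulator of epidermal differentiation in whose protein the finger pattern was found 0 times. Its TPM was 12.6 and 12.1 (early) and 22.5 and 20.4 (late) in the WT lysates, against 14.2 and 11.9 (early) and 19.6 and 26.99 (late) in the cKO lysates, without overlap between fractions, and it changed by 0.65 ± 0.11 (SE, adjusted p = 8.63e-04, limma). Zfp746 (chr6:48062395-48086593) encodes PARIS, a repressor that is a substrate of parkin. Zfp746 gave no match to the KRAB pattern, which may have missed a box. Its TPM was 24.9 and 22.8 (early) and 34.2 and 40.5 (late) in the WT lysates, against 18.3 and 17.8 (early) and 34.7 and 32.2 (late) in the cKO lysates. It rose by 0.62 ± 0.08 (SE, adjusted p = 2.28e-04, limma), and its early values were lower in both cKO libraries than in both WT libraries. Zfp646 (chr7:127876221-127885996), with 27 fingers in 1788 residues, had 27.4 and 25.7 (early) and 40.1 and 44.8 (late) in the WT lysates, against 26.8 and 22.8 (early) and 40.6 and 44.8 (late) in the cKO lysates, all late libraries above all early ones, and rose by 0.59 ± 0.08 (SE, adjusted p = 2.10e-04, limma). Zfp791 (chr8:85108553-85123095) rose most among the members that matched the KRAB pattern. It was a low gene with 29 to 62 reads per library. Its TPM was 3.63 and 3.39 (early) and 6.29 and 4.72 (late) in the WT lysates, against 3.25 and 2.83 (early) and 5.504 and 7.31 (late) in the cKO lysates. The fractions did not overlap, and the change was 0.59 ± 0.14 (SE, adjusted p = 0.00574, limma).

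Zfp637, Zfp706, Zfp688 and Zfp664, the members that fell most in late polysomes, encoded proteins of under 300 residues. Those that followed, Zfp961 and Zfp938, were longer, at 300 to under 450 and 450 to under 600 residues. Zfp637 (chr6:117841180-117845956, 286 residues, 6 fingers) had TPM values of 59.7 and 64.8 (early) and 33.1 and 33.8 (late) in the WT lysates, against 74.6 and 76.1 (early) and 32.6 and 30.03 (late) in the cKO lysates. Every early library lay above every late one, at 2.32 times their mean after scaling, and the change was -1.18 ± 0.07 (SE, adjusted p = 1.92e-05, limma). Zfp706 (chr15:36997027-37007773), whose coding sequence for 76 residues is shown whole above and which is known from the exit of embryonic stem cells from self-renewal, had 67.6 and 68.8 (early) and 38.5 and 32.4 (late) in the WT lysates, against 78.3 and 72.1 (early) and 38.2 and 31.7 (late) in the cKO lysates. The early libraries were at 2.21 times the late ones after scaling, a change of -1.13 ± 0.09 (SE, adjusted p = 2.97e-05, limma). Zfp664 (chr5:124862691-124902693, 261 residues, 9 fingers), with the TPM values given above, fell by 0.84 ± 0.07 (SE, adjusted p = 3.38e-05, limma) on the log2 scale, with no overlap between fractions. Its level was the second highest among the members, and its inferred reads of 1205 to 4054 per library make it one of the best covered.

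Among KRAB members, Zfp688 (chr7:127418967-127422068) fell most. It encodes 274 residues with 2 fingers, the shortest of the KRAB members. Its TPM was 42.4 and 30.3 (early) and 21.9 and 21.7 (late) in the WT lysates, against 29.2 and 30.5 (early) and 21.2 and 10.9 (late) in the cKO lysates. The cKO late replicate 2 value was the lowest by far and rests on 30 reads, and the change was -0.92 ± 0.19 (SE, adjusted p = 0.00286, limma). Zfp961 (chr8:71951038-71993792) had TPM values of 12.6 and 13.9 (early) and 9.31 and 8.599 (late) in the WT lysates, against 13.2 and 16.5 (early) and 9.34 and 6.55 (late) in the cKO lysates. No late library reached the lowest early one, and the change was -0.79 ± 0.14 (SE, adjusted p = 0.00111, limma). Zfp938 (chr10:82224850-82241280) had 13.3 and 16.3 (early) and 12.1 and 9.93 (late) in the WT lysates, against 13.7 and 14.4 (early) and 7.395 and 6.57 (late) in the cKO lysates. It changed by -0.76 ± 0.12 (SE, adjusted p = 4.67e-04, limma), by -0.49 in WT and -1.03 in cKO, and this difference between genotypes did not pass its own test, as given with the genotype comparison. The other 17 KRAB members called lower lay between -0.73 (Zfp810) and -0.24 (Zfp605), and the other 7 called higher between 0.31 (Zfp763) and 0.47 (Zfp647).

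**Figure D2:**
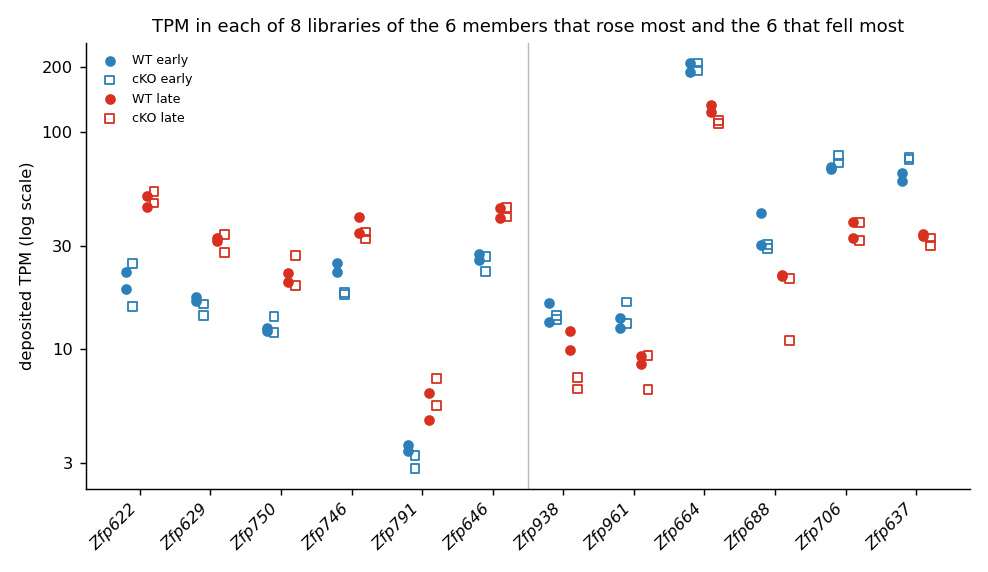
Deposited TPM (log scale) of the 6 members that rose most and the 6 that fell most between early (blue) and late (red) polysomes, 1 point for each of the 8 libraries, circles for WT and squares for cKO. In each of the 12 genes the 4 early and the 4 late libraries do not overlap, and in Zfp688 the lowest point, 10.9 TPM, is cKO late replicate 2.

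Regulators without a KRAB box included the related genes Zfp609 and Zfp608. Zfp609, which works with NIPBL and the Integrator complex in neural progenitors, had TPM values of 45.7 and 49.7 (early) and 71.6 and 77.5 (late) in the WT lysates, against 39.1 and 38.9 (early) and 58.5 and 70.7 (late) in the cKO lysates, and its paralog Zfp608 had 66.1 and 59.1 (early) and 97.8 and 98.5 (late) in the WT lysates, against 60.6 and 56.7 (early) and 94.1 and 88.3 (late) in the cKO lysates. Both had every late library above every early one, with changes of 0.55 ± 0.08 (SE, adjusted p = 2.58e-04, limma) and 0.52 ± 0.07 (SE, adjusted p = 2.23e-04, limma). Zfp687, of the Z3 chromatin complex, rose by 0.54 ± 0.07 (SE, adjusted p = 1.40e-04, limma), and Zfp827, which recruits the NuRD complex to telomeres, by 0.59 ± 0.07 (SE, adjusted p = 1.09e-04, limma). Zfp703 encodes a co-repressor. Its TPM was 23.03 and 21.6 (early) and 34.3 and 38.5 (late) in the WT lysates. In the cKO lysates it was 27.5 and 28.8 (early) and 39.3 and 51.4 (late). Zfp703 rose by 0.55 ± 0.09 (SE, adjusted p = 7.29e-04, limma). Zfp704, at 29.8 to 38.2 TPM in the 8 libraries, had a change of 0.0018 ± 0.09 (SE, adjusted p = 0.986, limma), and its fractions overlapped. The difference between Zfp703 and Zfp704 was not tested. Of the abundant genes, Zfp652 fell by 0.36 ± 0.07 (SE, adjusted p = 0.00149, limma) on the log2 scale with no overlap, and Zfp644 had a change of -0.06 ± 0.09 (SE, adjusted p = 0.588, limma) with overlapping fractions. Zfp740 and Zfp821, each with 2 fingers, fell by 0.48 and 0.43 on the log2 scale, with no overlap (adjusted p = 2.21e-04 and 0.00192, limma).

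Of the 23 members listed for a described role, 12 passed, 8 higher and 4 lower (52.2%, against 68.9% of all genes), with a median of 0.21. The list was drawn up with earlier results known. Those with roles in silencing or RNA processing are given next. Zfp809, a KRAB protein that silences retroviruses through their proline primer binding site, had 21.5 and 19.7 (early) and 22.9 and 23.4 (late) in the WT lysates, against 21.9 and 20.4 (early) and 19.96 and 22.5 (late) in the cKO lysates, with overlapping fractions and a change of -0.03 ± 0.08 (SE, adjusted p = 0.725, limma). Zfp618, a partner of UHRF2, had a change of 0.22 ± 0.10 (SE, adjusted p = 0.0794, limma), and Zfp830, a spliceosome-associated protein, of 0.14 ± 0.09 (SE, adjusted p = 0.208, limma). Zfp638 (NP220), which brings the HUSH complex to unintegrated viral DNA, passed narrowly, at 0.29 ± 0.11 (SE, adjusted p = 0.041, limma), with overlapping fractions. It lost the call when any of 5 libraries was left out, with adjusted p of 0.0679 to 0.134. Zfp932, a KRAB protein known from silencing of endogenous retroviruses, fell by 0.69 ± 0.16 (SE, adjusted p = 0.00486, limma) on the log2 scale, but 55.7% of the 50-base words of its coding sequence occur in other genes, most in Gm15446, so that its value is uncertain. Of the rest of the list not described elsewhere, Zfp708, Zfp719, Zfp768, Zfp800 and Zfp819 did not pass, with changes of 0.22, 0.16, -0.10, 0.21 and 0.25.

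Coding sequence shared with other genes was counted, since reads within it match more than 1 gene. Of the 138 members with a coding sequence, 86 shared no 50-base word with the coding sequence of another gene, 24 shared over 5% and 13 over 25%. Zfp934 shared 54.8%, most with Zfp808, the pair whose common run is shown above, and neither passed. Among the 106 tested members that shared at most 5%, 52 (49.1%) passed, with a median change of 0.05. Of the 12 genes with the largest changes, 10 shared no word, Zfp746 shared 0.367% and Zfp938 0.119%. How the authors assigned reads that match several genes is not stated in the sources used here.

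Trim28, the co-repressor that KRAB boxes bind, rose in late polysomes. It had TPM values of 100.2 and 91.5 (early) and 234 and 254 (late) in the WT lysates, against 92.7 and 69.7 (early) and 238 and 268 (late) in the cKO lysates. All late libraries were above all early ones, and the change was 1.37 ± 0.09 (SE, adjusted p = 1.92e-05, limma). Setdb1 rose by 0.72 ± 0.14 (SE, adjusted p = 0.00161, limma). Of 31 genes of the co-repressor and heterochromatin list that were tested, 19 were higher and 6 lower in late polysomes (80.6% called, against 68.9% of all genes), with a median of 0.37. Each of these counts stayed within 1 gene with TPM as deposited or quantile normalization.

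Coding length is known to set how many ribosomes fit on an mRNA, and it ran with the changes across these genes. Across the 125 tested members with a coding sequence, the Spearman correlation between protein length and the late-minus-early change was 0.50, and across 14675 genes of the table it was 0.63. It was 0.33 in the 79 KRAB members and 0.62 in the 46 others. With the number of fingers it was 0.07 over members, and 0.07 with fingers defined by exactly 2 residues between the cysteines. These are descriptions across genes, which share libraries and base composition and are not independent replicates. All 10 members under 300 residues had a change below 0, as had 3148 of the 3636 genes of that length. Of these members 9 passed, all lower, and 82.1% of the genes of that length did. Of 20 members with 800 residues or more, 9 passed (45%) and all 9 were higher. Of 3030 genes of that length 72.2% were called, 2028 higher and 160 lower, so that these directions were the prevailing ones at each length.

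**Figure D3:**
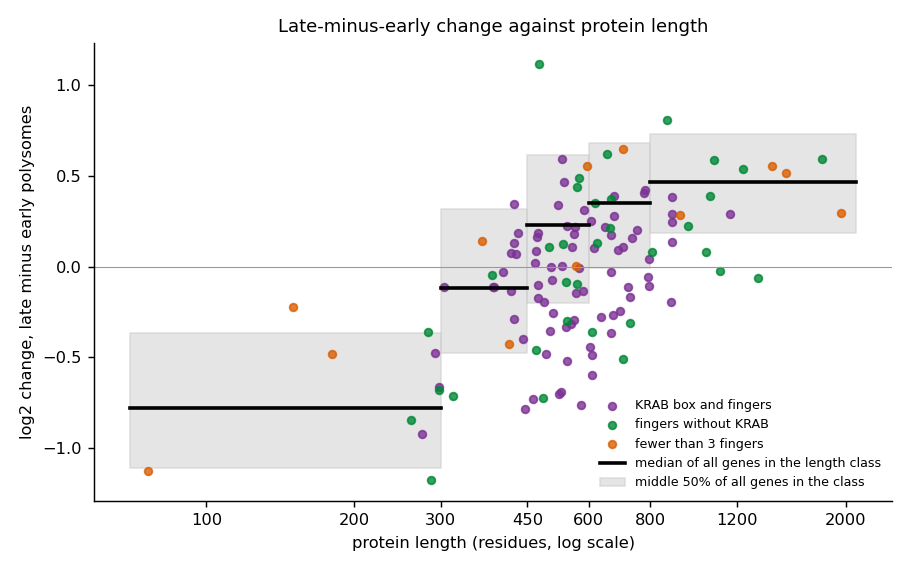
Change between late and early polysomes (log2) against protein length (residues, log scale) of the 125 tested members with a coding sequence, coloured by structure; black bars and grey boxes are the median and middle 50% of all genes in 5 length classes bounded at 300, 450, 600 and 800 residues. Members of 450 to under 800 residues, most of them KRAB genes, lie mainly below the bars, and Zfp622 at 476 residues and 1.12 stands above.

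At equal length the KRAB members lay below other genes in the 2 classes that hold most of them. From 450 to under 600 residues the median was -0.09 over 32 KRAB members and 0.23 over 2344 genes. From 600 to under 800 residues it was 0.04 over 25 KRAB members and 0.35 over 1864 genes. For 450 to under 800 residues together, the KRAB median minus that of all genes was -0.25 and -0.33 in the 2 WT lysates and -0.30 and -0.50 in the 2 cKO lysates, with a mean of -0.34 ± 0.11 (SD, n = 4). All 4 lysates gave the same sign, and a scaling factor between libraries cancels in such a difference, apart from the pseudocount. The 21 members of that length without a KRAB box differed by -0.13 ± 0.08 (SD, n = 4), and 97 KRAB genes outside the symbol range by -0.24 ± 0.06 (SD, n = 4). Levels moved with this, since the 57 KRAB members had a median of 9.76 TPM and all genes of that length 24.4. Among genes of at least 10 TPM the difference was -0.47 ± 0.13 (SD, n = 4) over 27 KRAB members, -0.29 ± 0.09 over 18 members without a KRAB box and -0.19 ± 0.10 over 39 KRAB genes outside the range, so that the order of the last 2 sets turned with the level. Under 300 and from 300 to under 450 residues the KRAB members did not lie below, at 0.09 ± 0.30 and 0.10 ± 0.09 (SD, n = 4) over 3 and 13 genes. At 800 residues and over the 6 KRAB members again lay below, at -0.25 ± 0.07 (SD, n = 4), with the same sign in all 4 lysates. The length classes were chosen after the changes had been seen, no test was made of these differences, and the coding sequence used may not be the isoform expressed in this tissue.

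Position was examined through the chromosomes with at least 8 tested members. On chromosome 13, where 10 members were tested, 1 passed, lower in late polysomes, which is 10.0%, against 69.2% of 582 genes there. These members had a median of 4.43 TPM and the genes there 25.9, and the part of level in this share was not tested. On chromosome 17, 4 of 17 passed (23.5%), against 67.9%. On chromosome 7, 13 of 31 passed (41.9%), 8 higher and 5 lower, against 64.4%. On chromosome 6, 5 of 9 passed (55.6%), against 71.4%, and on chromosome 8, 9 of 16 (56.2%), against 73.9%. All 5 shares lay below those of the genes around them, as did the share over all members. The median TPM of members and of the genes there was 11.8 and 20.6 on chromosome 17 and 12.3 and 16.9 on chromosome 7. It was 11.3 and 28.2 on chromosome 8, but 28.2 and 25.3 on chromosome 6, where members were not the lower ones. The part of level was not tested on these chromosomes either. Neighbours on chromosome 7 had changes in both directions: -0.92 for Zfp688 and -0.36 for the nearby Zfp689 (chr7:127442136-127449158), but 0.81 for Zfp629 and 0.59 for Zfp646.

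Within each genotype, 17 members were higher and 21 lower in late polysomes of WT, 29.7% of them, against 54.8% of all genes (27.1% higher and 27.7% lower). In cKO 16 were higher and 26 lower, 32.8%, against 58% of all genes (28.6% higher and 29.4% lower). In both genotypes 30 members passed (23.4%, against 48.5% of all genes), which is 78.9% of those called in WT and 71.4% of those called in cKO, against 88.5% and 83.6% over all genes. The 30 had the same direction in both genotypes, as had 7810 of the 7812 genes called in both. WT and cKO share no library, but the fit shares 1 estimate of the spread. The counts in WT depended on single libraries. Without WT early replicate 1 they fell to 24 members, without WT early replicate 2 to 21 and without WT late replicate 2 to 19. In cKO, leaving out cKO early replicate 2 lowered the count of lower members from 26 to 16.

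The comparison of cKO with WT asked whether loss of Mex3a, which encodes an RNA-binding protein, altered these mRNAs in either fraction. With limma, 0 of 128 members passed in early polysomes, in late polysomes or on the mean of the lysates, and 0 passed in the difference between genotypes of the late-minus-early change. The background was also low: of all genes 7 passed in early polysomes (0.0435%), 2 in late (0.0124%), 1 on lysate means (0.00621%) and 1 in the interaction (0.00621%). Mex3a itself was among those called in early and in late polysomes, and it was the 1 gene called on lysate means. At an unadjusted p under 0.05 there were 5 members early (3.91%), 7 late (5.47%), 9 on lysate means (7.03%) and 5 in the interaction (3.91%), against 6.63%, 9.32%, 11.3% and 2.8% of all genes. The test on inferred whole reads with voom also gave 0 in each. The median difference of cKO from WT was 0.02 over members in early and -0.06 in late polysomes, against 0.0059 and -0.0043 over all genes. In late polysomes 45 of 128 members and 7895 of 16097 genes were above 0. Several lists of cell type markers also leaned to 1 side by genotype in that fraction. With limma 0 markers of the lists given next passed there. Of 12 immature neuron markers 10 were below 0, with a median of -0.15 and summed TPM of 4842 to 5069 in WT and 4323 to 4331 in cKO, and of 15 mature neuron markers 11 were below 0, with sums of 11118 to 11693 and 9900 to 10652. Of 12 gland markers 10 were above 0, with a median of 0.27 and sums of 25369 to 29790 in WT and 31972 to 34725 in cKO, and of 10 immune and blood markers 8 were above 0, with a median of 0.20. Fewer cells of a type and less RNA per cell cannot be told apart between genotypes in these bulk samples. A value in late polysomes also depends on how the mRNA is spread over the gradient. The part of these markers in the members' differences was not tested. For single members the median standard error was 0.16 in late polysomes, so that with 2 libraries per group a difference of that size was not detectable. Larger differences of members did not pass either. The largest in that fraction, -0.64 in Zfp711, had an adjusted p of 0.403 (limma), so that 0 calls do not exclude differences of such sizes.

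**Figure D4:**
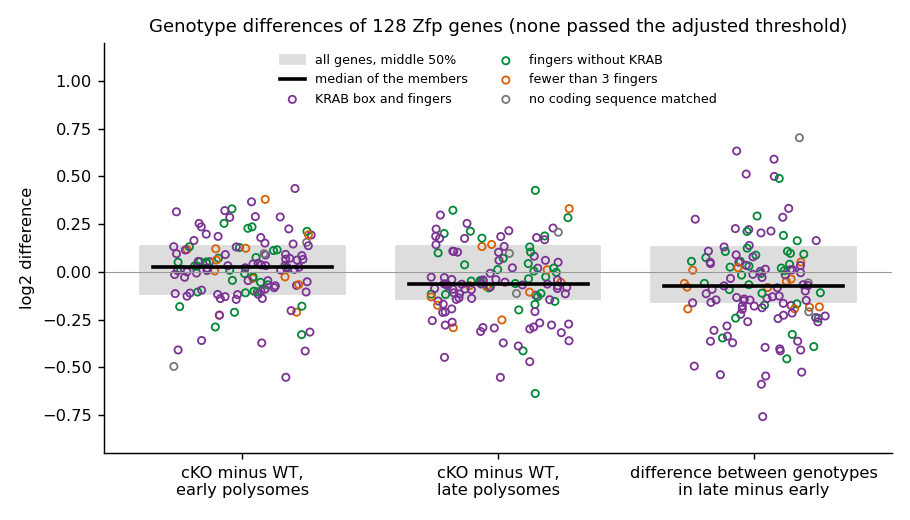
Difference of cKO from WT (log2) of each of the 128 tested genes in early and late polysomes, and the difference between genotypes in the late-minus-early change; black bars are the medians over members and grey bands the middle 50% of all genes. Member medians are 0.02, -0.06 and -0.07, most points lie within 0.5 of 0, and 0 points passed the adjusted threshold.

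The members with the smallest p are given with their values, since none passed. Zfp703 was higher in cKO in both fractions, by 0.38 ± 0.13 early and 0.33 ± 0.13 late (SE, adjusted p = 0.694 and 0.489, limma). In its TPM values above, both cKO libraries exceed both WT libraries in each fraction. Zfp771 had TPM values of 17.3 and 21.7 (early) and 11.7 and 11.2 (late) in the WT lysates, against 21.5 and 22.6 (early) and 15.1 and 15.7 (late) in the cKO lysates, with 0.43 ± 0.14 in late polysomes (SE, adjusted p = 0.424, limma). Zfp711, an X-linked gene of intellectual disability whose protein works with the demethylase PHF8, had 6.05 and 4.81 (early) and 7.65 and 7.303 (late) in the WT lysates, against 3.88 and 5.105 (early) and 4.54 and 4.11 (late) in the cKO lysates. Its late values in cKO lay below those of WT, with a difference of -0.64 ± 0.19 (SE, adjusted p = 0.403, limma), on 48 to 140 reads per library. Zfp938 had -0.55 ± 0.16 in late polysomes (SE, adjusted p = 0.403, limma).

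In early polysomes the smallest p also belonged to Zfp637, with a difference of 0.33 ± 0.10 (SE, adjusted p = 0.674, limma), Zfp746, with -0.33 ± 0.12 (SE, adjusted p = 0.713, limma), and Zfp931, with -0.55 ± 0.22 (SE, adjusted p = 0.724, limma). Zfp931 rests on 8 to 39 reads per library and shares 48.6% of its 50-base words with other genes. For the difference between genotypes in the late-minus-early change, Zfp715 had -0.76 ± 0.26, Zfp637 -0.39 ± 0.14, Zfp938 -0.54 ± 0.23, Zfp783 0.70 ± 0.30 and Zfp784 0.49 ± 0.23 (SE), each with an adjusted p of 0.9999 (limma). Zfp715, a KRAB gene of 18 fingers, had TPM values of 9.94 and 10.2 (early) and 17.3 and 14.7 (late) in the WT lysates, against 13.8 and 10.5 (early) and 12.4 and 9.65 (late) in the cKO lysates. In WT its late libraries lay above the early ones, and in cKO the fractions overlapped. Zfp783, annotated as a transcribed pseudogene, had 4.53 and 4.34 (early) and 2.14 and 3.11 (late) in the WT lysates, against 2.43 and 3.097 (early) and 2.91 and 3.28 (late) in the cKO lysates, lower in late than early polysomes in WT and overlapping in cKO.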

How the data were processed

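The authors deposited 1 table of TPM with 1 column per library, and per the submitters' processing notes FastQC, cutadapt, STAR and DESeq2 were used with build mm10, in roles and versions that are not given. The counting method and the annotation are not given in the sources used here, and TPM states no depth. Per the labels' protocols, libraries were made with a stranded low-input total RNA kit from pooled gradient fractions. Groups and replicate numbers came from the sample titles.

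Libraries were brought to a common scale by median ratios, with factors from 0.937 to 1.07. Tests used limma 3.58.1 (R 4.3.3) on log2(scaled TPM + 1) (empirical Bayes with a mean-variance trend, two-sided), the 4 groups fitted together over the 16097 genes with a mean TPM of at least 1, with Benjamini-Hochberg adjustment over all of them and a threshold of 0.05. Changes on this scale understate those of low genes. A further genotype test averaged both fractions of a lysate first. Standard errors cover the spread between libraries. Whole reads were inferred from TPM steps for 19783 genes, within a tolerance of 0.001, and served for depth and for voom as an alternative. The inference of reads and the limma fit were tried on simulated data. Libraries were drawn independently there, so deviations shared between libraries were not covered. The early and late library of a lysate were paired by the lysate name in the library names; the correlation of their deviations from the group means across genes was 0.0865 in WT and 0.0503 in cKO.

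Coding sequences, positions and protein lengths came from GENCODE M21 on GRCm38 (mm10), where 140 of the 141 symbols were found and which may differ from the authors' annotation. The longest complete coding sequence of a gene was used and translated, since no RefSeq protein was used here. The KRAB box and C2H2 fingers were found by pattern. Shared sequence was counted as 50-base words. The symbol range, by a rule on names alone, and the lists and classes were chosen with earlier results of these data known. Genes named were Mex3a, the 6 rising and 6 falling members with the largest called change, a mean scaled TPM of at least 2 and 1 sign in all 4 lysates, the 6 most abundant, the 2 rising and 2 falling with the smallest p in each genotype comparison, members with a described role, and Trim28 and Setdb1. Zfp605, Zfp647, Zfp689, Zfp763, Zfp808, Zfp810, Zfp827 and Zfp934, the members with no coding sequence and the untested members were named after their values were seen. Alternatives were pseudocounts of 0.1 and 0.5, a filter of 5 TPM or none, quantile normalization or TPM as deposited, a fit without the mean-variance trend, only the libraries compared, leaving out each library, replicate blocks and voom. Figures were drawn with matplotlib 3.10.9.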

Additional observations from a re-analysis of the deposited data

How the results depend on the processing

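No member was called in a genotype comparison or in the interaction under any alternative run, with limma or voom, and calls of late against early polysomes kept their number within 1.5 times except as follows. With TPM as deposited, 37 members were higher and 22 lower on average, the lower count in cKO was 17, and the median change of members was 0.10 on average, 0.13 in WT, 0.061 in cKO, -0.028 for cKO against WT in early polysomes, -0.095 in late and -0.070 on lysate means. With quantile normalization the median was 0.049 on average and 0.060 in WT, and under the filter of 5 TPM it was -0.025 on average. In WT the median was 0.040 with a pseudocount of 0.1, 0.025 without a filter and 0.045 with voom. Leaving out each library in turn gave 45 to 56 calls on average (19 to 24 higher, 25 to 32 lower), 19 to 38 in WT (10 to 17 higher, 9 to 22 lower) and 28 to 43 in cKO (11 to 17 higher, 16 to 26 lower), and medians of -0.026 to 0.019 on average, 0.026 to 0.048 in WT, -0.088 to -0.025 for genotype in late polysomes, -0.037 to -0.0026 on lysate means and -0.11 to -0.054 in the interaction. With the lysate as a replicate block, 22 members were higher and 32 lower on average, 17 and 18 in WT and 15 and 24 in cKO, and a block on the replicate number changed the number of calls in no genotype comparison. WT and cKO libraries with the same number had deviations that correlated at 0.332 in early and 0.143 in late polysomes, more than the fractions of a lysate did, but the labels give such numbers no shared source. Among named genes that did not pass, the sign turned for Zfp644 (0.059 with TPM as deposited, 0.046 with quantile normalization), Zfp704 (-0.00739 with quantile normalization), Zfp768 (0.023) and Zfp809 (0.083, both with TPM as deposited), and without single libraries for Zfp644 (-0.13 to 0.0081), Zfp704 (-0.063 to 0.067) and Zfp711 (-0.00498 to 0.17). With TPM as deposited Zfp618, Zfp800 and Zfp830 passed, at 0.33, 0.33 and 0.25. Zfp638 did not pass without a filter or without the mean-variance trend. The cause was not tested. Using only members that share at most 5% of their 50-base words, or only genes of at least 10 TPM, was chosen after seeing the data. Low counts limit what can be seen: the lowest library of a tested member had 8 reads.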

Other observations

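Base composition of the coding sequence ran with the late-minus-early change in these genes. The Spearman correlation with GC content was 0.34 over 125 members and 0.42 over the 79 KRAB members, against 0.04 over 14675 genes, while with the length of the 5′ untranslated region it was 0.01 over members and 0.03 over all genes. These are correlations across genes that share libraries. They carry no p, and coding length was not held fixed in them.

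In late polysomes 23 of the 79 KRAB members were above 0 in the difference of cKO from WT, with a median of -0.07, and of 122 KRAB zinc finger genes outside the symbol range 47 were above 0, with a median of -0.06. In early polysomes the counts were 48 of 79, with a median of 0.02, and 58 of 122, with a median of -0.02. With limma 0 of these genes passed in either fraction. At an unadjusted p under 0.05 there were 2 of the 79 and 10 of the 122 in late polysomes, and 1 and 2 in early. These are 2.53% and 8.2% late and 1.27% and 1.64% early, against 9.32% and 6.63% of all genes.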
